A study of Mus musculus with 12 samples.

Results

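Promoter methylation of 58 genes of axon guidance was measured in colon epithelium of mice with induced Dnmt3b and of control mice. The genes were chosen by symbol: all genes listed in the deposited tables whose name starts with Epha, Ephb, Efna, Efnb, Sema, Plxn, Nrp or Slit with a digit, Robo, Ntn or Unc5, except Ephb2, Ephb3 and Unc5c. They are 58 of the 12098 genes listed in all. All but Unc50 encode guidance ligands or receptors. Unc50 shares only the letters of the prefix and encodes a membrane protein unrelated to the Unc5 receptors.

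Guidance molecules steer growing axons and migrating cells by attraction or repulsion. Ephrins bind the Eph receptor tyrosine kinases, and both sit in cell membranes, so they signal on contact between cells. Semaphorins act through plexins, the secreted ones mostly with a neuropilin as co-receptor. Slit proteins repel through Robo receptors, and netrins attract through Dcc and repel through Unc5 receptors. Many of these genes are also used outside the nervous system. In the intestinal crypt, EphB receptors and ephrin-B ligands keep cell types at their positions along the crypt axis. Promoters of several guidance genes, Slit and Unc5 genes among them, are known to become methylated in human colorectal tumours.

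Epithelial cells had been isolated from colons of chow-fed C57BL/6 mice. The enzyme Dnmt3b, a DNA methyltransferase that acts on unmethylated CpGs, was induced in 3 of them with doxycycline at 0.5 g/l in drinking water for 3 months, with new water every 3 days, and 3 control mice drank regular water. What drives the induction, whether control mice carry the same inducible construct, and age and sex of the mice are not given in the labels. Only the induced mice received doxycycline, so the drug and the induction cannot be told apart. Each mouse gave a library of short MspI fragments (40 to 120 nt) and one of long fragments (120 to 220 nt), which cover different CpGs of a promoter but share the animal. Reduced representation bisulfite sequencing reads unmethylated cytosine as thymine, and each value is the mean CpG methylation level of a gene's RefSeq promoters, in percent. A level averages over the cells of the sample, so partial methylation of all cells and full methylation of some cannot be told apart. How many reads stand behind a level is unknown. Values of a group are given for mice 1, 2 and 3 in turn.

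Libraries listed 10358 to 10838 genes in the short and 7278 to 8108 in the long fraction. Of the 58 genes, 51 were present in all 6 short-fragment libraries and 39 in all 6 long-fragment libraries, 36 of them in both. Robo4, Sema3d, Sema3e and Sema6b were complete in neither fraction. Of 22 epithelial markers 7 were tested among short and 9 among long fragments, and none was called by limma, also at an unadjusted p under 0.05. In the short fraction the 7 markers, Epcam, Cdh1, Cdx1, Cdx2, Cldn3, Cldn7 and Klf5, had mean levels of at most 1.19% in induced and 1.59% in control mice. Of the long-fragment markers 8 of 9 were under 10% in both groups, and Krt18 was at 30.2% and 22.8% in induced and control mice. Of 20 markers of stromal, muscle, endothelial and glial cells 7 were tested in the short fraction, and 6 of these rose, such as Kdr, a receptor of endothelial cells, at 65.4% and 1.99% (adjusted p = 0.000268). Their mean level was 56.97% to 65.9% in induced and 7.04% to 8.03% in control libraries. Among long fragments 3 were tested and 3 rose, with mean levels of 35.8%, 61.3% and 71.95% in induced and 1.37%, 1.1% and 2.25% in control libraries. Of 20 immune markers 1 was tested per fraction: Lck, at 0.113% and 0.37% in induced and control mice of the short fraction, and Coro1a, at 73.6% and 12.6% in those of the long (adjusted p = 0.00215). Promoter levels do not give the share of other cell types, whose part in the results was not tested.

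Some guidance genes gained high methylation, and others had levels near 0 in both groups. In the short fraction 32 of 51 genes rose and none fell (limma, Benjamini-Hochberg adjusted p under 0.05), which is 62.7%, against 27.6% of all 10027 genes tested. Among long fragments 18 of 39 rose and none fell, which is 46.2%, against 23.2% of 6127. At an unadjusted p under 0.05 again none fell in either fraction. No p was computed for these shares. Of all genes, 0.0798% fell among short and 0.0163% among long fragments. The median difference between induced and control mice was 8.49 points over the 51 genes and 0.50 points over all genes in the short fraction, and 14.6 and 0.943 points in the long fraction. The lowest induced mouse was above the highest control mouse for 39 of 51 genes (76.5%, against 39.5% of all genes) and for 24 of 39 (61.5%, against 38.2%). No guidance gene had all induced mice below all controls, which 0.908% and 0.277% of all genes had. With RefSeq promoters in place of genes, 34 of 59 guidance promoters rose in the short fraction, against 27.4% of all promoters, and 20 of 41 in the long fraction, against 22.8%. Efna5, Epha7, Nrp2 and Sema4f, the guidance genes with several promoters, had the same value at each of them. These promoter counts therefore repeat the gene values and add no second measurement.

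The size of the gain varied widely among the genes. Of the 51 genes of the short fraction 14 gained more than 50 points, 11 gained 20 to 50, 5 gained 5 to 20, and 21 changed by less than 5 points. The same counts in the long fraction were 11, 7, 7 and 14. Gains over 50 points were seen for 27.5% of the guidance genes and 13.5% of all genes in the short fraction, and for 28.2% and 14.2% in the long fraction. Gains over 20 points were seen for 49.0% of guidance genes and 22.8% of all genes among short fragments, and for 46.2% and 24.7% among long ones. Mean levels under 5% in the induced mice were found for 21 of 51 guidance genes (41.2%, against 64.1% of all genes) and for 14 of 39 (35.9%, against 57.9%). In the induced mice 12, 16 and 17 of the 51 genes (23.5%, 31.4% and 33.3%) were above 50% in the short fraction, against 0 in each control mouse. Of all genes tested, 16.6%, 17.9% and 19.2% were above 50% in induced mice, against 2.38%, 2.24% and 2.38% in control mice. The mean level over the 51 genes was 25.8%, 28.96% and 30.4% in induced mice, against 1.94%, 1.85% and 2.20% in control mice. Over 39 genes of the long fraction it was 28.5%, 27.9% and 33.6% in induced mice, against 4.09%, 2.83% and 3.76% in control mice. The mean level over all genes tested was 16.3% to 18.4% in induced and 3.81% to 4.39% in control mice in the short fraction. In the long fraction it was 18.3% to 21.2% and 4.78% to 5.46%. The only level above 50% in a control mouse among the 51 and 39 guidance genes was that of Efnb1.

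Some calls were lost when 1 library was left out. Of the 32 genes called in the short fraction 24 were called whichever library was left out, and of the 18 in the long fraction 12 were. The same share over all called genes was not counted. Such a fit has 1 mouse fewer, so a lost call need not come from that mouse. Epha4 kept its short-fragment difference of 1.65 points without any 1 control mouse and still lost its call. Shifting each library by its median difference from the mean library moved the split over all genes from 2765 higher and 8 lower to 2844 higher and 2368 lower in the short fraction, and from 1421 and 1 to 1628 and 1938 in the long fraction. It lowered every difference by 0.396 points in the short and by 0.502 points in the long fraction, which left a median difference over all genes of 0.104 and 0.442 points. Among the guidance genes it gave 34 higher and 3 lower (Efna4, Epha1 and Sema4g) in the short fraction, and 20 higher and 2 lower (Plxna2 and Unc50) in the long fraction. Plxna2 was at 0% in all 6 long-fragment libraries, so its lower call comes from the shift alone. No gene called higher lost its call under this setting.

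Ephrins, the ligands of Eph receptors, ranged from unmethylated to nearly fully methylated in the induced mice. Of 8 tested in the short fraction 3 rose, and of 4 in the long fraction 1 did, against 27.6% and 23.2% of all genes. No family was tested as a set. Efnb3 (Gene ID 13643) had short-fragment levels of 96.3%, 83.5% and 94.3% in induced mice, against 15.4%, 22.2% and 20.5% in control mice. Its control level was the highest among the genes that passed in the short fraction, and it rose by 71.99 points (SE 4.21, adjusted p = 0.000545). Efna5 (13640), a GPI-anchored ligand that repels retinal axons, had, among short fragments, 64.6%, 71.3% and 78.4% in induced mice, against 3.32%, 1.52% and 2.55% in control mice, a rise of 68.9 points (SE 3.81, adjusted p = 0.000492). Its long fragments had 71.1%, 37.5% and 64.4% in induced mice, against 0%, 1.42% and 1.26% in control mice, a rise of 56.8 points (SE 9.76, adjusted p = 0.018). The groups lay far apart in both fractions, and induced mouse 2 was the lowest of the induced mice among long fragments. The long-fraction call was lost without induced mouse 3 or any 1 control mouse (adjusted p = 0.0629 to 0.0787).

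The other ephrins had lower levels in the induced mice, apart from Efnb1. Efnb2 (13642), a membrane ligand used in crypts and blood vessels, had, among short fragments, 1.88%, 1.18% and 1.04% in induced mice, against 0.95%, 0.02% and 0.08% in control mice, a difference of 1.02 points (SE 0.377, adjusted p = 0.145). The long-fragment levels were 0.04%, 2.14% and 0.83% in induced mice, against 0.09%, 0.01% and 0% in control mice (adjusted p = 0.396). The groups did not overlap in the short fraction and overlapped in the long one. Efna3 (13638) had short-fragment levels of 2.98%, 3.7% and 5.14% in induced mice, against 0.08%, 0.29% and 0% in control mice, and its small rise passed the test at 3.82 points (SE 0.606, adjusted p = 0.0103). It did not without control mouse 1 or 3 (adjusted p = 0.0509 to 0.0513), and the long fraction, with 2.45%, 0% and 8.92% in induced mice, against 0%, 0% and 0% in control mice, did not pass either (adjusted p = 0.452). Efna2 had short-fragment levels of 3.72%, 13.7% and 8.48% in induced mice, against 0.16%, 0.26% and 0% in control mice, without passing (adjusted p = 0.0977), and passed without induced mouse 1 (10.9 points, adjusted p = 0.0222). Efna1 and Efna4 did not exceed 0.19% in any short-fragment library.

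The windows of Efna5 and Efnb2 are shown because both are rich in CpG and differ in outcome: Efna5 holds 38 and Efnb2 35 CpGs. The windows run from 250 bases before to 50 bases after the gene's start in RefSeq's annotation of build GRCm38.p6, 5′ to 3′, with each CpG in capitals. No source used here gives the build and promoter window behind the deposited levels, and these bases need not be the ones measured.
Efna5 (chr17:62881268-62881567, minus strand): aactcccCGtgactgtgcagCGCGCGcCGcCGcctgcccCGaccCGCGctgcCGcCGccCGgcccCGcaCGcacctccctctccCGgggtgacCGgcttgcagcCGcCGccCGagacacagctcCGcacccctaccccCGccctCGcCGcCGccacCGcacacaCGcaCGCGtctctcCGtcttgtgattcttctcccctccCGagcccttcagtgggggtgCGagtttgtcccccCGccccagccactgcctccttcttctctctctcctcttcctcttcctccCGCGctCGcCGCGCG
Efnb2 (chr8:8661193-8661492, minus strand): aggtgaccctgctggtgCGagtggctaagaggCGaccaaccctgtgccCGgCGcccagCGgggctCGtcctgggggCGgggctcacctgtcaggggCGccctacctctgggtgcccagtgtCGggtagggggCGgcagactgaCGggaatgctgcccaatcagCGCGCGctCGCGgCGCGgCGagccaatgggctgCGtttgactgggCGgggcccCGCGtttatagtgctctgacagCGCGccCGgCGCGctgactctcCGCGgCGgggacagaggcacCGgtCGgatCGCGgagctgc
Both windows contain 3 MspI sites (CCGG), where the enzyme cuts.

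Efnb1 (13641), the ephrin whose loss in humans disturbs skull and face development, lies on the X chromosome and varied most between control mice. In the short fraction it had short-fragment levels of 56.7%, 46.2% and 44.6% in induced mice, against 36.3%, 0.08% and 39.7% in control mice, a difference of 23.8 points (SE 12.5, adjusted p = 0.301). Long fragments had 79.4%, 46.1% and 74.7% in induced mice, against 75.7%, 0% and 36.4% in control mice, a difference of 29.3 points (SE 23.01, adjusted p = 0.536). Control mouse 2 was near 0 in both of its libraries, while control mouse 1 was above induced mouse 2 among long fragments. Control mouse 2 also stood apart over the whole chromosome. The median over 229 X-linked genes was 55.1%, 49.0% and 48.5% in induced mice, against 33.96%, 0.11% and 33.2% in control mice, in the short fraction. Over 136 X-linked genes of the long fraction it was 55.4%, 51.9% and 63.4% in induced mice, against 36.1%, 0% and 36.3% in control mice. Without control mouse 2 the Efnb1 difference was 11.1 points (adjusted p = 0.259) in the short and 10.7 points (adjusted p = 0.783) in the long fraction. No other of the 58 genes lies on the X chromosome.

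**Figure D1:**
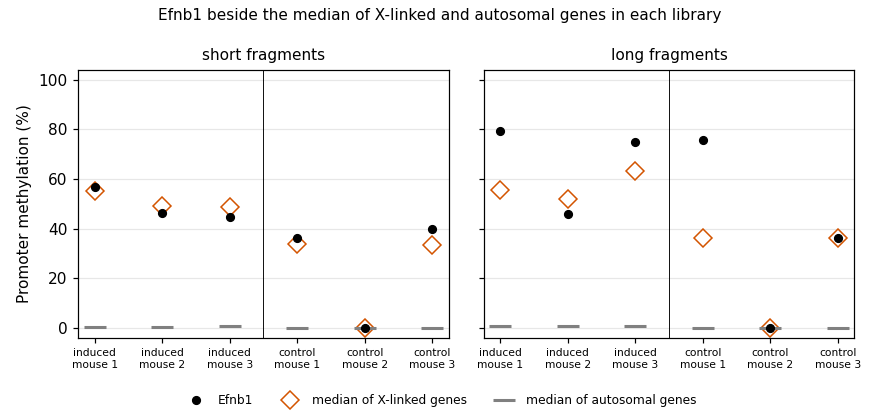
Promoter methylation (%) of Efnb1 (filled circles) in each library, with the median of X-linked genes (open diamonds) and of autosomal genes (grey bars), induced mice at the left of each panel. In control mouse 2 both Efnb1 and the X-linked median lie at or near 0, while they are between 33.2% and 79.4% in the other mice.

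Of 11 Eph receptor genes tested in the short fraction 7 rose, against 27.6% of all genes. In the long fraction 5 of 9 did, against 23.2%. Of the 11, 3 changed by less than 5 points. Epha5 (13839), a receptor of the developing brain, had, among short fragments, 64%, 59.8% and 62.9% in induced mice, against 1.23%, 2.28% and 2.41% in control mice, a rise of 60.3 points (SE 1.22, adjusted p = 6.83e-05). The levels of long fragments were 49.2%, 56.1% and 69.6% in induced mice, against 8.63%, 0.52% and 1.63% in control mice, a rise of 54.7 points (SE 6.18, adjusted p = 0.0054). The induced mice differed little from each other in the short fraction and more in the long one. Ephb1 (270190), which guides retinal axons to the same side of the brain, had, among short fragments, 69.6%, 63.95% and 72.5% in induced mice, against 2.27%, 3.36% and 2.05% in control mice. Long-fragment levels were 75.4%, 62.4% and 69.2% in induced mice, against 0%, 1.62% and 2.31% in control mice. Its rises of 66.1 points (SE 2.4, adjusted p = 0.000205) and 67.7 points (SE 3.62, adjusted p = 0.000968) were close to each other.

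Epha10 (230735), a receptor without kinase activity, had short-fragment levels of 64.6%, 72.7% and 73.99% in induced mice, against 4.32%, 2.59% and 5.84% in control mice, a rise of 66.2 points (SE 2.9, adjusted p = 0.000297). It was not listed among long fragments. Epha8 (13842) had short-fragment levels of 57.5%, 72.4% and 57.04% in induced mice, against 0%, 0% and 0% in control mice, a rise of 62.3 points (SE 4.77, adjusted p = 0.00102). For long fragments the levels were 33.7%, 51.7% and 63.6% in induced mice, against 1.34%, 2.47% and 0.99% in control mice, and that rise of 48.1 points (SE 8.25, adjusted p = 0.0179) lost its call without induced mouse 2 or any 1 control mouse (adjusted p = 0.0672 to 0.0784). The groups of both genes lay far apart in each fraction that listed them.

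Epha6 (13840) rose in both fractions, by more among short fragments. It had, among short fragments, 75.9%, 70.8% and 74.1% in induced mice, against 2.91%, 9.27% and 4% in control mice, and, among long fragments, 34.8%, 42.6% and 47.1% in induced mice, against 0.09%, 4.09% and 8.02% in control mice. The rises were 68.2 points (SE 2.33, adjusted p = 0.000179) and 37.4 points (SE 4.03, adjusted p = 0.00469), and the difference between them, long minus short, was -30.7 points (SE 4.61, limma interaction, adjusted p = 0.00554). Across all 5309 genes in the 12 libraries 4.71% differed between the fractions by this test, and 3 of the 36 guidance genes did. Epha7 (13841) passed in the long fraction, with 34.2%, 36.7% and 42.1% in induced mice, against 0.49%, 0% and 0.41% in control mice and a rise of 37.4 points (SE 2.21, adjusted p = 0.00112). Its short-fragment levels were 30.1%, 11% and 30.2% in induced mice, against 0.94%, 0.06% and 2.24% in control mice, also without overlap, and the difference of 22.7 points (SE 6.06, adjusted p = 0.0572) did not pass, though it did without induced mouse 2 (29.1 points, adjusted p = 0.00058). With all mice it passed on the log2 scale (adjusted p = 0.00991), with trend and robust moderation (adjusted p = 0.0339), after centring (adjusted p = 0.034) and with genes of a mean under 1% left out (adjusted p = 0.0152). The gap between the fractions did not pass either (interaction adjusted p = 0.337).

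Epha3 had short-fragment levels of 13.3%, 38.2% and 44.98% in induced mice, against 1.79%, 2.69% and 0.09% in control mice, without passing (adjusted p = 0.0792), with induced mouse 1 well below the other two; it passed without induced mouse 1 (40.1 points, adjusted p = 0.00183). Ephb6 (13848), whose kinase is inactive, rose less, with 19.1%, 26.2% and 24.4% in induced mice, against 0.01%, 0.09% and 0.16% in control mice, or 23.1 points (SE 2.01, adjusted p = 0.00146), in the short fraction. Its long fragments had 23.2%, 8.7% and 11.9% in induced mice, against 0.04%, 0% and 0% in control mice, without passing (adjusted p = 0.0814; interaction adjusted p = 0.495), and passed without induced mouse 1 (10.3 points, adjusted p = 0.0107). Epha1, found mainly in epithelial tissue, had short-fragment levels of 0%, 0.12% and 0% in induced mice, against 0.18%, 0.05% and 0% in control mice, and Epha2, another epithelial receptor, had short-fragment levels of 1.97%, 6.75% and 3.63% in induced mice, against 0.04%, 0% and 0.3% in control mice (adjusted p = 0.107). Epha2 passed without induced mouse 1 (5.08 points, adjusted p = 0.0444), and among long fragments, with 0%, 3.06% and 1.92% in induced mice, against 0.41%, 0% and 0% in control mice (adjusted p = 0.361), likewise without induced mouse 1 (2.35 points, adjusted p = 0.038). Ephb4, the vein receptor for Efnb2, was tested in the long fraction only, with 2.27%, 1.14% and 0% in induced mice, against 0%, 0% and 2.98% in control mice (adjusted p = 0.984). Epha4 (13838) had short-fragment levels of 0.94%, 1.66% and 2.35% in induced mice, against 0%, 0% and 0% in control mice, a rise of 1.65 points (SE 0.386, adjusted p = 0.038). That call was lost without induced mouse 2 or any 1 control mouse (adjusted p = 0.113 to 0.126). Its long-fragment levels were 1.63%, 0% and 0.93% in induced mice, against 0%, 0.09% and 0% in control mice (adjusted p = 0.347; interaction adjusted p = 0.641).

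All 5 Slit and Robo genes tested in the short fraction rose, and so did all 4 in the long fraction. Over all genes 27.6% and 23.2% rose. Slit1 (20562), a secreted repellent of the forebrain, had short-fragment levels of 70.1%, 79.1% and 79.8% in induced mice, against 1.44%, 12.95% and 2.27% in control mice, a rise of 70.8 points (SE 4.56, adjusted p = 0.000674). The long-fragment levels were 64.1%, 52.2% and 67.3% in induced mice, against 0.17%, 9.25% and 8.8% in control mice, a rise of 55.2 points (SE 5.19, adjusted p = 0.00322). Control mouse 2 had the highest control level in both fractions. Slit3 (20564) had, among short fragments, 46.4%, 48.4% and 58.2% in induced mice, against 0.23%, 2.22% and 6.13% in control mice, and, among long fragments, 50.2%, 76.8% and 65.6% in induced mice, against 7.23%, 0.51% and 4.36% in control mice. Its rises were 48.1 points (SE 3.81, adjusted p = 0.00111) and 60.1 points (SE 7.55, adjusted p = 0.00726). Slit2 (20563), the repellent at the ventral midline, gained far less. It had, among short fragments, 5.13%, 8.25% and 7.32% in induced mice, against 1.03%, 0.84% and 1.05% in control mice, a rise of 5.93 points (SE 0.876, adjusted p = 0.00804), and, among long fragments, 14.1%, 11.5% and 13.9% in induced mice, against 0%, 1.42% and 0% in control mice, a rise of 12.7 points (SE 0.902, adjusted p = 0.00164). The groups did not overlap, and the gain was larger among long fragments by 6.78 points (SE 1.27, limma interaction, adjusted p = 0.0177). Without control mouse 1, 2 or 3, or induced mouse 3, that interaction did not pass (adjusted p = 0.124, 0.0765, 0.121 and 0.0529).

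Slit3 and Slit2 are shown because these paralogs have CpG-rich windows and unlike gains. The window of Slit3 holds 41 CpGs and 2 MspI sites, and that of Slit2 holds 30 CpGs and 4 MspI sites. They span 300 bases each, with CpGs in capitals, from the same RefSeq table and build.
Slit3 (chr11:35121206-35121505, plus strand): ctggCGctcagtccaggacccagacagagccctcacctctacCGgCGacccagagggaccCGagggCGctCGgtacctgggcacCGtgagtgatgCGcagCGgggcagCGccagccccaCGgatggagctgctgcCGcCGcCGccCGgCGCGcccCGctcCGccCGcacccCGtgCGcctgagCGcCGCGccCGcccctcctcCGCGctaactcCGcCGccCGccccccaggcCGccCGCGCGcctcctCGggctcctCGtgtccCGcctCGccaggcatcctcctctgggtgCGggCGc
Slit2 (chr5:47982905-47983204, plus strand): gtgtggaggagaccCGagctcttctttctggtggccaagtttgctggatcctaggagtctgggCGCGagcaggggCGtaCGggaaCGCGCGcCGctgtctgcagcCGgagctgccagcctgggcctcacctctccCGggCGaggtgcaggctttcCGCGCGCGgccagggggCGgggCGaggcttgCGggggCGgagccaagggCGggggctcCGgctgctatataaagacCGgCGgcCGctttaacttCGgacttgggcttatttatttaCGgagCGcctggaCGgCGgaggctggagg
Their gains in the short fraction were 48.1 and 5.93 points.

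Robo1 (19876), a Slit receptor, had short-fragment levels of 45.6%, 73.1% and 67.7% in induced mice, against 0.25%, 10.7% and 1.95% in control mice, a rise of 57.8 points (SE 8.5, adjusted p = 0.00789). Control mouse 1 has no long-fragment value for it. There the induced mice were at 63.7%, 76.8% and 51.5%, and control mice 2 and 3 at 11.1% and 1.93%. Robo2 (268902), its neuronal relative, had, among short fragments, 57.97%, 63.6% and 56.5% in induced mice, against 2.63%, 2.86% and 4.94% in control mice, and, among long fragments, 52.1%, 65.9% and 67.5% in induced mice, against 0.05%, 4.07% and 2.16% in control mice. It rose by 55.9 points (SE 2.15, adjusted p = 0.000245) and 59.7 points (SE 4.76, adjusted p = 0.00208). Robo4, the endothelial member, was highly methylated in both groups: the one induced mouse with a value, mouse 1, was at 91.5%, against 89.4%, 84.3% and 100% in control mice. It was not tested and was not listed among long fragments.

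Netrins and their receptors also ranged from high to low gains. Of the short-fraction genes with these prefixes 6 of 8 rose, and in the long fraction 3 of 6, against 27.6% and 23.2% of all genes. Ntn1 (18208), the attractant of commissural axons, had short-fragment levels of 52.9%, 47.4% and 45.9% in induced mice, against 1.27%, 0.46% and 0.06% in control mice, a rise of 48.1 points (SE 2.05, adjusted p = 0.000292). Long fragments had 30.5%, 73.4% and 67.5% in induced mice, against 0%, 1.76% and 0.56% in control mice, with induced mouse 1 far below the others. That rise of 56.4 points (SE 12.8, adjusted p = 0.0415) lost its call without induced mouse 2 or 3 or any 1 control mouse (adjusted p = 0.105 to 0.141). Ntn3 (18209) had, among short fragments, 29.2%, 42.4% and 41.1% in induced mice, against 3.45%, 2.5% and 0% in control mice, or 35.6 points (SE 4.09, adjusted p = 0.00347). The levels of long fragments were 82.95%, 68.9% and 83.7% in induced mice, against 1.94%, 11.9% and 19.4% in control mice, or 67.4 points (SE 6.62, adjusted p = 0.00364). The gain was 31.9 points larger among long fragments, which did not pass as a difference (interaction adjusted p = 0.0583); without induced mouse 2 it did, at 39.1 points (adjusted p = 0.0257).

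Ntng1, a membrane-anchored netrin, had short-fragment levels of 48.4%, 55.9% and 57.4% in induced mice, against 3%, 0.08% and 0.41% in control mice, a rise of 52.7 points (SE 2.76, adjusted p = 0.000437). Its long fragments lacked induced mouse 3 and were not tested. There induced mice 1 and 2 were at 71.7% and 48.4%, against 0%, 3.58% and 0% in control mice. Ntn4 (57764), a basement membrane netrin, had short-fragment levels of 5.29%, 5.41% and 2.3% in induced mice, against 0.06%, 0% and 0% in control mice, and the rise of 4.31 points (SE 0.961, adjusted p = 0.0322) passed. Leaving out induced mouse 1 or 2 or any 1 control mouse ended that call (adjusted p = 0.0876 to 0.113). Among long fragments Ntn4 had 3.63%, 15.3% and 23.1% in induced mice, against 0%, 0% and 0% in control mice (adjusted p = 0.173; interaction adjusted p = 0.505), and passed without induced mouse 1 (19.2 points, adjusted p = 0.0209). Unc5d (210801), an Unc5 receptor of migrating cortical neurons, had, among short fragments, 36.8%, 50.4% and 52.2% in induced mice, against 0.38%, 1.37% and 0.16% in control mice, and, among long fragments, 60.3%, 63.8% and 87.2% in induced mice, against 0%, 1.25% and 0.5% in control mice. It rose by 45.8 points (SE 4.59, adjusted p = 0.00221) and 69.8 points (SE 8.03, adjusted p = 0.00566). Unc5a had short-fragment levels of 37.8%, 41.2% and 56.2% in induced mice, against 0.25%, 1.9% and 0.67% in control mice, a rise of 44.1 points (SE 5.36, adjusted p = 0.00415). Among long fragments, where it was not tested, Unc5a was at 37.0% and 38.5% in induced mice 2 and 3 and at 0% in control mice 1 and 2. Its paralog Unc5b (107449), the netrin receptor of blood vessels, had, among short fragments, 1.42%, 0.39% and 0.16% in induced mice, against 0.17%, 0.07% and 0.41% in control mice (adjusted p = 0.546). Long-fragment levels were 0%, 0% and 1.17% in induced mice, against 0.04%, 0.12% and 0% in control mice (adjusted p = 0.611). Unc50 (67387) had, among short fragments, 0.43%, 0.24% and 0% in induced mice, against 0.1%, 0% and 0% in control mice, and, among long fragments, 0%, 0% and 0% in induced mice, against 0.58%, 0.08% and 0% in control mice (adjusted p = 0.433 and 0.546). Its values equalled those of 6330578E17Rik in every library, so both have 1 measurement.

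Unc5a and Unc5b are shown for the same reason, as receptors with nearly equal CpG content and unequal gain. Their windows hold 37 and 36 CpGs, which are in capitals, and 6 and 5 MspI sites.
Unc5a (chr13:54949161-54949460, plus strand): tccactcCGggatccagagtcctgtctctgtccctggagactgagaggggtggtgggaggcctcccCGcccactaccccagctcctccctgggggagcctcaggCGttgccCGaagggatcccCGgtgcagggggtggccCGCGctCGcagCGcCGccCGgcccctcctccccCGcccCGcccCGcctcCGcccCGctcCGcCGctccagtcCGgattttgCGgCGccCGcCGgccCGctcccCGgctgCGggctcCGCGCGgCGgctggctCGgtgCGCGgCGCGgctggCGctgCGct
Unc5b (chr10:60831532-60831831, minus strand): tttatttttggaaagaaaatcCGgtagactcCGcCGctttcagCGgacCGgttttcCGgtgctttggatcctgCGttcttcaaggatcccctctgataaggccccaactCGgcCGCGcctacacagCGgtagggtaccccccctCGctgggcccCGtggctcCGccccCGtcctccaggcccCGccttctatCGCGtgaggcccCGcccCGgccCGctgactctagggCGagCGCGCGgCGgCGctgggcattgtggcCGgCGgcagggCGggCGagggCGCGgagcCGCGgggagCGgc
The differences between induced and control mice in the short fraction were 44.1 points for Unc5a and 0.44 points for Unc5b.

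**Figure D2:**
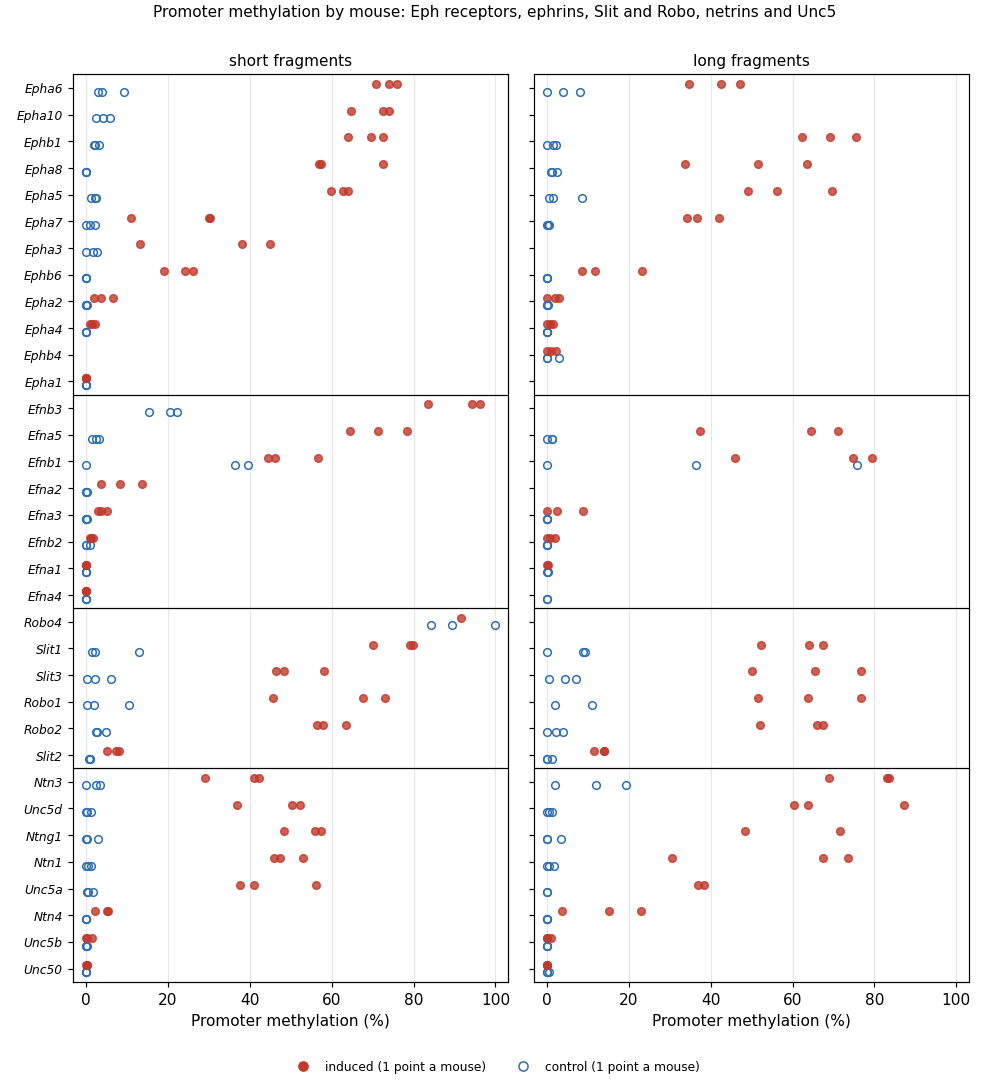
Promoter methylation (%) of Eph receptors, ephrins, Slit and Robo genes and genes with netrin and Unc5 prefixes by mouse, in short (left) and long (right) fragments; filled red points are induced and open blue points control mice, and genes are ordered within a family by their highest induced mean. Control points lie near 0 for most genes, while induced points spread from 0% (Epha1, Unc50) to 96.3% (Efnb3).

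Semaphorins had the lowest median difference of the families in the short fraction, 1.99 points over the 11 tested of 16 listed, of which 6 rose. Over all genes the median was 0.50 points and 27.6% rose. In the long fraction 2 of 10 rose, against 23.2% of all genes, and the median was 4.53 points, against 0.943 points. Sema5b (20357), a transmembrane semaphorin, was the exception among those tested in both fractions. It had, among short fragments, 55.5%, 74.2% and 84.1% in induced mice, against 4.67%, 2.53% and 3.38% in control mice, a rise of 67.7 points (SE 7.92, adjusted p = 0.00365). For long fragments the levels were 85.9%, 58.2% and 78.4% in induced mice, against 3.22%, 0.02% and 3.81% in control mice, a rise of 71.8 points (SE 7.93, adjusted p = 0.00508). Its closest relative Sema5a had, among short fragments, 2.75%, 1% and 4.04% in induced mice, against 0.13%, 0% and 0% in control mice (adjusted p = 0.103), and did not exceed 0.47% in any long-fragment library. It passed without induced mouse 2 (3.35 points, adjusted p = 0.0151) in the short fraction. Sema4f had, among short fragments, 39.6%, 58.6% and 50% in induced mice, against 0.8%, 3.53% and 1.42% in control mice, a rise of 47.5 points (SE 5.23, adjusted p = 0.00301). Among long fragments it was at 0%, 31.4% and 67.2% in induced mice and at 0% in control mice 2 and 3, the only control mice with a value. Sema3e, a secreted ligand of Plxnd1, lacked induced mouse 1 in the short fraction, so it was not tested and is not in the median. The other two induced mice were at 76.5% and 74.3%, against 1.97%, 6.72% and 4.37% in control mice.

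The remaining semaphorins stayed below 35%, apart from Sema3b. Sema3b (20347), a secreted semaphorin, was measured among long fragments only and had 53.6%, 50.2% and 57.5% in induced mice, against 17.03%, 47.7% and 32.3% in control mice. The groups did not overlap, control mice ranged widely, and the difference of 21.4 points (SE 8.65, adjusted p = 0.194) did not pass. Sema3f (20350), a secreted ligand of neuropilins, had short-fragment levels of 6.52%, 9.09% and 7.38% in induced mice, against 1.35%, 1.87% and 3.79% in control mice, a rise of 5.33 points (SE 1, adjusted p = 0.0181). That call was lost without induced mouse 3 or control mouse 1 or 2 (adjusted p = 0.0602 to 0.0768). Among long fragments Sema3f had 15.5%, 21.3% and 33.4% in induced mice, against 3.63%, 6.26% and 2.02% in control mice (adjusted p = 0.0657; interaction adjusted p = 0.217), and passed without induced mouse 1 (23.4 points, adjusted p = 0.042) and without induced mouse 3 (14.4 points, adjusted p = 0.0365). Sema7a (20361), a GPI-anchored semaphorin that signals through integrins, had short-fragment levels of 13.6%, 10.6% and 7.31% in induced mice, against 3.13%, 3.25% and 2.69% in control mice, a rise of 7.5 points (SE 1.73, adjusted p = 0.036). Its call was lost without induced mouse 2 or any 1 control mouse (adjusted p = 0.11 to 0.127). Its groups overlapped in the long fraction, with 27.8%, 6.6% and 5.84% in induced mice, against 12.5%, 0% and 3.74% in control mice (adjusted p = 0.584; interaction adjusted p = 0.984).

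Class 4 semaphorins other than Sema4f changed by 1.99 points or less in the short fraction. Sema4c (20353), a ligand of Plxnb2, had short-fragment levels of 1.12%, 2.21% and 2.74% in induced mice, against 0.04%, 0.07% and 0% in control mice, a rise of 1.99 points (SE 0.452, adjusted p = 0.0347). Sema4d (20354), a ligand of Plxnb1 and known also from lymphocytes, had short-fragment levels of 0.88%, 2.3% and 1.86% in induced mice, against 0%, 0% and 0.03% in control mice, a rise of 1.67 points (SE 0.398, adjusted p = 0.0403). Neither call held without induced mouse 2 or 3 or any 1 control mouse (adjusted p = 0.0622 to 0.121 for Sema4c and 0.0747 to 0.133 for Sema4d). Among long fragments Sema4c had 0.24%, 2.65% and 0.36% in induced mice, against 0.04%, 0.03% and 0.02% in control mice, and Sema4d had 0%, 0.99% and 0% in induced mice, against 0.5%, 0.04% and 0% in control mice, and neither passed (adjusted p = 0.485 and 0.821; interaction adjusted p = 0.716 and 0.182). Sema4c passed there without induced mouse 2 (0.27 points, adjusted p = 0.0473). Sema4b did not exceed 0.37% in any library. Sema3c, Sema6a and Sema6d stayed at 6% or less in every library that listed them, and so did Sema6b. Sema3d was listed at 0% in 1 control library only.

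Sema4g (26456), a transmembrane semaphorin, gave different readings from its short and long fragments. It had, among short fragments, 0.08%, 0.04% and 0.03% in induced mice, against 0.02%, 0.04% and 0.05% in control mice (adjusted p = 0.882). Its long fragments had 16.9%, 15.6% and 12.8% in induced mice, against 8.33%, 3.89% and 5.32% in control mice, a rise of 9.24 points (SE 1.7, adjusted p = 0.0219). The gain was larger among long fragments by 9.22 points (SE 1.68, limma interaction, adjusted p = 0.0151). Leaving out induced mouse 2 or control mouse 2 or 3 ended that call (adjusted p = 0.0564, 0.0899 and 0.104). The long-fraction rise by itself was lost without induced mouse 1 or 2 or control mouse 2 or 3 (adjusted p = 0.0619 to 0.0922). Its window is shown because its reading depended on the fragments sequenced. It has 30 CpGs, in capitals, and 4 MspI sites, with neighbouring sites at a distance of the short class and none at a distance of the long class.
Sema4g (chr19:44989094-44989393, plus strand): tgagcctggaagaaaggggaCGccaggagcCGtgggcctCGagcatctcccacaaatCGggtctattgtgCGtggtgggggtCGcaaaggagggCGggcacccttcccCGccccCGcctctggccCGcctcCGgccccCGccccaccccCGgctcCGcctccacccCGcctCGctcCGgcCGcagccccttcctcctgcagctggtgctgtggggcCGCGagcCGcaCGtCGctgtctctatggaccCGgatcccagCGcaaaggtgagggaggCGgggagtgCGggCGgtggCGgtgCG
Of the 11 genes that passed in 1 fraction and not in the other, Sema4g alone passed the test of the difference with all mice, and without induced mouse 1 Ephb6 and Ntn4 did so too.

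Plexins and neuropilins, the receptors of semaphorins, ranged likewise. In the short fraction 5 of 8 rose and in the long fraction 3 of 6, against 27.6% and 23.2% of all genes. Plxnc1 (54712), a receptor of Sema7a, had, among short fragments, 48.1%, 61.2% and 70.2% in induced mice, against 0.01%, 1.06% and 0.04% in control mice, a rise of 59.4 points (SE 6.06, adjusted p = 0.00234). The long-fragment levels were 66.1%, 65.3% and 81.01% in induced mice, against 2.73%, 4.64% and 3.52% in control mice, a rise of 67.2 points (SE 4.89, adjusted p = 0.00173). Plxna4 (243743), a receptor of sensory and sympathetic neurons, had, among short fragments, 43.2%, 56.8% and 70.2% in induced mice, against 0.28%, 0.38% and 0.53% in control mice, and, among long fragments, 27.5%, 54.6% and 43.8% in induced mice, against 1.33%, 0% and 0% in control mice. The rises were 56.4 points (SE 7.36, adjusted p = 0.00526) and 41.5 points (SE 7.51, adjusted p = 0.0208), and the second was lost without induced mouse 3 or any 1 control mouse (adjusted p = 0.0732 to 0.0865). Induced mouse 1 was the lowest in both fractions.

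Plxnd1, the endothelial receptor of Sema3e, had, among short fragments, 29.2%, 28.7% and 31.6% in induced mice, against 1.08%, 0.29% and 0.56% in control mice, a rise of 29.2 points (SE 0.867, adjusted p = 0.000143) that all 3 induced mice showed alike. Its long-fraction rise of 36.3 points (SE 7.86, adjusted p = 0.0362) rested on 45.1%, 23.9% and 50% in induced mice, against 3.07%, 7.14% and 0% in control mice, and was lost without induced mouse 1 or 3 or any 1 control mouse (adjusted p = 0.0864 to 0.134). Plxna1 (18844) had short-fragment levels of 7.53%, 8.2% and 8.08% in induced mice, against 0.18%, 0.32% and 0.02% in control mice, a small rise of 7.76 points (SE 0.215, adjusted p = 0.000128) with little spread. In the long fraction its groups overlapped, with 9.09%, 11.2% and 11.6% in induced mice, against 10.2%, 0% and 5% in control mice (adjusted p = 0.318; interaction adjusted p = 0.764). Nrp1, a co-receptor for semaphorins and VEGF, had short-fragment levels of 6.32%, 3.41% and 3.15% in induced mice, against 0%, 0.07% and 0.66% in control mice. Its rise of 4.05 points (SE 0.98, adjusted p = 0.0422) was lost without induced mouse 2 or 3 or any 1 control mouse (adjusted p = 0.0568 to 0.143). Nrp2 did not exceed 0.42% in any short-fragment library, and its 6 RefSeq promoters had the same value. Plxnb1, the epithelial receptor of Sema4d, had, among short fragments, 2.54%, 0% and 0% in induced mice, against 0%, 0.04% and 0% in control mice, and, among long fragments, 0.6%, 1.32% and 1.96% in induced mice, against 0.06%, 0% and 0.29% in control mice, without passing (adjusted p = 0.568 and 0.117). Its long-fragment difference passed without induced mouse 1 (1.52 points, adjusted p = 0.0287). Plxna2 was at 0% in all 6 long-fragment libraries.

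**Figure D3:**
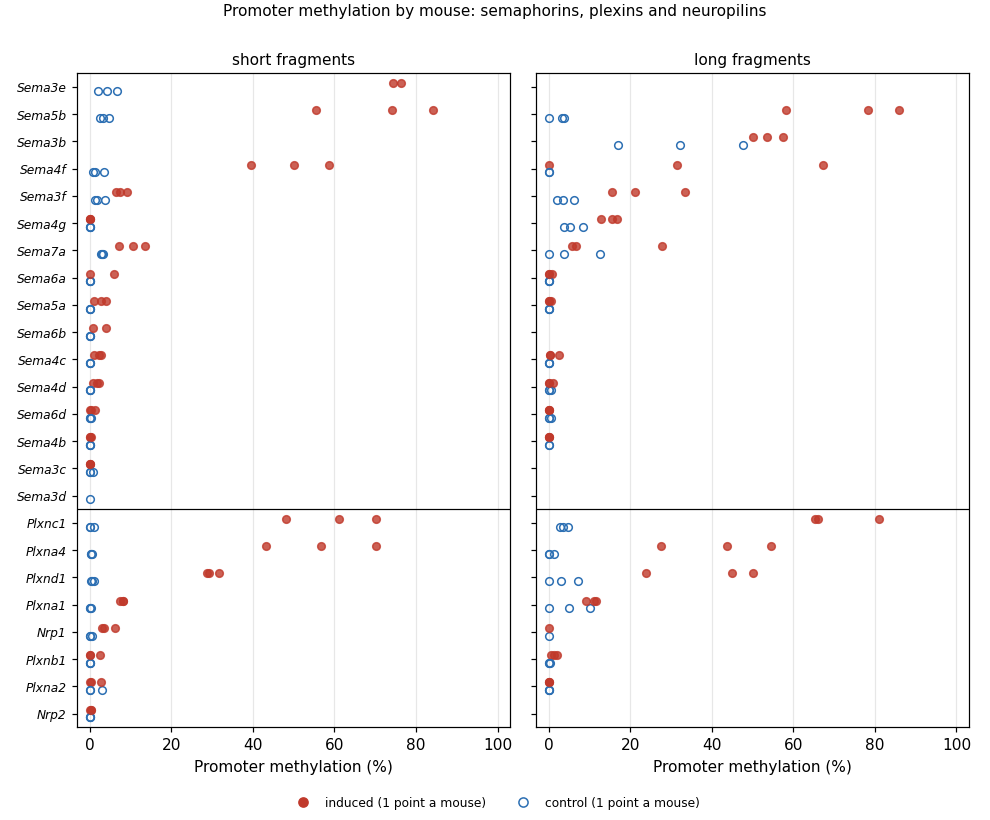
Promoter methylation (%) of semaphorins and of plexins and neuropilins by mouse, in short (left) and long (right) fragments; filled red points are induced and open blue points control mice, and genes are ordered within a family by their highest induced mean. Sema5b, Sema3e, Sema4f, Plxnc1 and Plxna4 reach 39.6% to 84.1% in the induced mice of the short fraction that have a value, while most other semaphorins stay near 0 in both groups.

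Of the 36 genes tested in both fractions 16 rose in both, 9 in the short fraction alone, 2 in the long fraction alone and 9 in neither. On a log2 scale of the levels these counts were 20, 8, 1 and 7, with trend and robust moderation 17, 9, 1 and 9, and after centring 19, 7, 1 and 9. On the log2 scale Ephb6, Ntn4 and Sema3f also passed among long fragments, and Epha2, Epha7 and Sema5a among short ones. With genes of a mean level under 1% left out they were 19, 2, 1 and 14, and the short-fraction calls of Efna3, Epha4, Ntn4, Sema4c and Sema4d were no longer made, by the filter or by the test. In the fit with all genes, the genes that rose in neither were Efnb1, Efnb2, Epha2, Plxna2, Plxnb1, Sema5a, Sema6d, Unc50 and Unc5b. Both fractions come from the same mice, so a gain seen in both is not a repeat in other animals. The same split was not counted over all genes, so whether it is particular to guidance genes was not tested. The calls that differ were mostly of small size: of the 9 genes called in the short fraction alone, 8 had differences of 7.76 points or less there, and Ephb6 had 23.1 points.

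**Figure D4:**
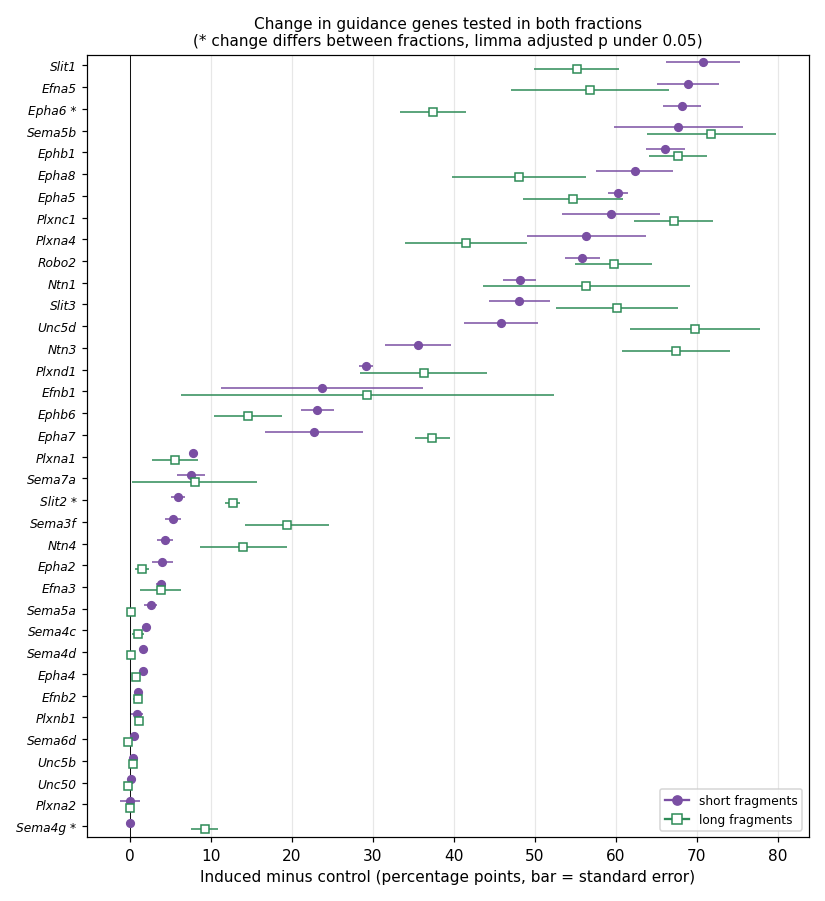
Difference between induced and control mice in percentage points (bars are standard errors of the fit per fraction) for the 36 genes tested in both fractions, with filled circles for short and open squares for long fragments, in order of the short-fragment change. Asterisks mark Epha6, Slit2 and Sema4g, with a change that differed between short and long fragments (limma interaction).

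Guidance genes with large gains and those near 0 had like median CpG content in their promoters. RefSeq windows were found for 49 of the 58 genes. In the short fraction the median ratio of observed to expected CpG was 0.726 for 20 genes that gained more than 20 points and 0.745 for 21 genes that changed by less than 5. Over all genes the same medians were 0.663 for 1711 genes and 0.820 for 5575. Across 44 guidance genes the change had Pearson's r = 0.0953 and Spearman's rho = 0.00282 with this ratio, against r = -0.254 and rho = -0.278 across 7977 genes. In the long fraction r was 0.116 (rho = 0.0907) across 31 guidance genes and -0.229 (rho = -0.247) across 4805 genes. These are descriptions across genes, which share libraries and are not independent replicates. An MspI site was present in any window of 45 of the 49 genes (91.8%), against 89.0% of 9573 listed genes counted alike. Of all 32851 single windows 52.8% held a site. That share counts windows in place of genes. It also includes genes that were not listed, while listing goes through MspI fragments, so it is no like background. The motif CCGG reads the same on both strands, and each site contains 1 CpG. Epha3, Epha6, Ephb1 and Sema5a were listed although their windows hold no CCGG.

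**Figure D5:**
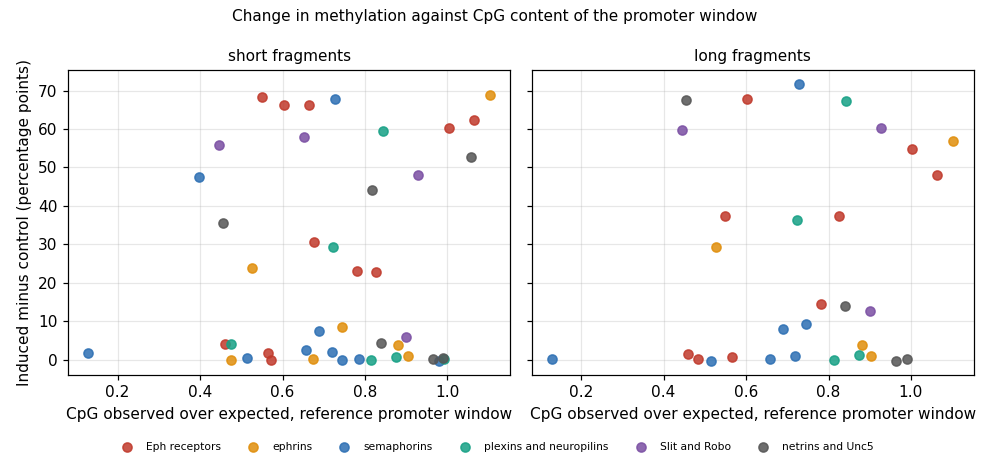
Difference between induced and control mice in percentage points (vertical) against the ratio of observed to expected CpG in the RefSeq promoter window (horizontal), 1 point a gene, coloured by family, for 44 genes in short (left) and 31 in long (right) fragments. Genes with gains over 50 points and genes near 0 lie side by side over most of the range of the ratio.

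Other genes of the guidance pathway, from a list of 83 names of co-receptors, adhesion molecules and intracellular mediators, were tested beside them. Of 63 tested in the short fraction 26 rose and none fell, also at an unadjusted p under 0.05 (41.3%, against 27.6% of all genes), and in the long fraction 16 of 42 (38.1%, against 23.2%). No test of the difference from the 58 genes was made. The genes named here were chosen after their values were seen, and their levels are those of short fragments unless stated. The largest short-fragment gains of the list were those of Ngef, an exchange factor downstream of Eph receptors, with means of 77.6% and 1.53% (adjusted p = 0.00397) in induced and control mice, and of Plxdc2, with 69.6% and 6.46% (adjusted p = 0.00068). Crmp1, a mediator of semaphorin signalling, had 67.7% and 4.72% (adjusted p = 0.000248), and the adhesion molecule gene Dscam had 63.7% and 1.45% (adjusted p = 0.00241) in induced and control mice. The chemokine Cxcl12 and its receptor Cxcr4 had 61.7% and 1.64% (adjusted p = 0.00891) and 43.4% and 0% (adjusted p = 0.000673). Among mediators of the cytoskeleton some rose and others did not, also within gene families. Of the Rac GTPases, Rac3 had 12.6% and 0.173% (adjusted p = 0.000241) and Rac1 0.0267% and 0.0567% (adjusted p = 0.703) in induced and control mice. Of the Pak kinases, Pak6 had 38.6% and 0.973% (adjusted p = 0.0137) and Pak2 0.0233% and 0.08% (adjusted p = 0.595). Of the kinases that act on cofilin, Limk2 had 47.7% and 32.5% (adjusted p = 0.0425) and Limk1 1.7% and 1.14% (adjusted p = 0.815). The actin regulators Enah and Evl had 51.6% and 0.453% (adjusted p = 0.000118) and 51.6% and 0.847% (adjusted p = 0.000417), the kinase Fyn 34.5% and 0.26% (adjusted p = 0.00281), and the exchange factor Vav2 17.2% and 1.9% (adjusted p = 0.0013) in induced and control mice. Rhoa, Cdc42, Rock1 and Rock2 had mean short-fragment levels of 0.26% or less in both groups and were not called. Rhoa had 3.15% and 0% among long fragments (adjusted p = 0.584). Of the genes that rose here, Dscam, Crmp1, Cxcl12, Cxcr4, Enah and Evl also passed among long fragments (adjusted p = 0.00442 to 0.0333). Rac3 and Limk2 did not (adjusted p = 0.0781 and 0.228). Neo1, a netrin receptor, was at 0.1% and 0.0367% (adjusted p = 0.568), and Met, a receptor kinase that binds plexins, at 0.03% and 0.0367% (adjusted p = 0.975) in induced and control mice.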

How the data were processed

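Reduced representation bisulfite sequencing of colon epithelium gave 12 libraries from 6 mice, 3 with induced Dnmt3b and 3 controls, each mouse split into a short and a long fragment library. Per the labels' protocols, DNA was cut with MspI, size selected, bisulfite treated, amplified by PCR and sequenced on an Illumina Genome Analyzer II. Each table the authors deposited holds 1 library, with a methylation fraction averaged over the CpGs of every RefSeq promoter and of every gene, as named in its header. Aligner, build, coverage filter, read depth and the window taken as promoter are not given in those sources. Counting error therefore has no interval here, and reads without molecular identifiers may include PCR copies.

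Fractions were multiplied by 100 to percent. Gene levels equalled the mean over a gene's promoters within 0.005 points. Where all 6 libraries of a fraction list a gene, induced mice were compared with control mice by limma 3.58.1 in R 4.3.3 (lmFit, then eBayes, on the percent scale). Benjamini-Hochberg adjustment was over all genes tested, with a threshold of 0.05. The test was tried on simulated data with large rises only, which does not cover the rises of a few points called here. The change in long minus the change in short fragments was tested in 1 limma fit over all 12 libraries with the mouse as a correlated block (consensus correlation 0.0674). A difference is induced minus control in percentage points. With 3 mice per group an exact permutation test cannot go below p = 0.1, so single genes rest on limma's pooled spread. Replicate numbers of induced and control mice are only names.

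The 58 genes, the other gene lists and the tests were chosen with earlier results of these data known. Given in every library were, per fraction, the 12 called genes with the largest difference, genes called in 1 fraction only where both were tested, genes with a control mean over 20%, X-linked genes, and the 4 genes with the highest CpG ratio and a change under 5 points in both fractions; a rule for genes whose promoters differ by over 20 points named none. Other genes named were chosen after their values were seen. Alternatives left out each library, loosened or tightened filters, changed the scale, the moderation and the centring, used promoters as units, and added a replicate block.

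Gene IDs were matched to RefSeq for 12076 of 12098 genes. CpG and CCGG were counted with Python 3.11.15 in RefSeq windows of 300 bases (GRCm38.p6), found for 49 of the 58 genes, and a gene's windows were averaged. Any pair of libraries of a fraction shared at most 2.53% identical values above 0, so none was a copy of another.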

Additional observations from a re-analysis of the deposited data

Results flagged for a closer look

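The change between induced and control mice differed between short and long fragments for 3 of the 36 guidance genes measured in all 12 libraries, against 4.71% of all 5309 genes (limma interaction, adjusted p under 0.05). For Epha6 the change in long fragments minus that in short fragments was -30.7 points (SE 4.61, adjusted p = 0.00554), from rises of 37.4 points in long and 68.2 points in short fragments. It was called whichever mouse was left out. For Sema4g it was 9.22 points (SE 1.68, adjusted p = 0.0151), with rises of 9.24 points in long and 0.0133 points in short fragments, of which the short-fragment one did not pass. For Slit2 it was 6.78 points (SE 1.27, adjusted p = 0.0177), from rises of 12.7 points in long and 5.93 points in short fragments. Sema4g lost its call without any 1 of 3 mice and Slit2 without any 1 of 4, as given with their levels.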

How the results depend on the processing

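Leaving out each library in turn gave 24 to 34 guidance genes called in the short fraction (32 with all libraries) and 12 to 21 in the long fraction (18). Over all genes it gave 2227 to 3029 (2773) and 885 to 1528 (1422); the low values in the long fraction came without control mouse 1, 2 or 3, with 905, 885 and 897. The median difference over guidance genes ran from 7.63 to 10.9 points in the short fraction, the highest without induced mouse 1, and from 14.003 to 19.2 in the long fraction, the highest again without induced mouse 1. Genes present in 2 of 3 libraries per group raised it to 19.4 points in the long fraction through the added genes. Of the genes added by that filter, Ntng1, Robo1 and Unc5a were called in the long fraction and Sema3e in the short fraction. Between fractions, 1 to 7 guidance genes differed (3 with all mice), with 7 without induced mouse 1 (Ephb6, Ntn1, Ntn4 and Plxnb1 added), 5 without induced mouse 2 (Ntn3, Plxnd1 and Sema5a added, Sema4g lost), 2 without induced mouse 3 or control mouse 1, and 1 without control mouse 2 or 3. Median centring raised the calls over all genes to 5212 among short and 3566 among long fragments. The shift by itself can make a gene at 0% in every library pass as lower, as it did for Plxna2 among long fragments. How many of the added calls arose in this way was not counted.

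With the replicate number as a block, 24 guidance genes and 2114 of all genes were called among short fragments, against 9 guidance genes and 652 of all genes among long ones. Same-numbered induced and control mice shared only a number: their deviations had correlations of 0.0736, 0.00398 and -0.0499 for short fragments and 0.00102, 0.0366 and 0.0247 for long ones, so no pairing was used. Without the mouse block of the fit across fractions, 3 genes again differed. Centring lowers every difference of a fraction by the same amount, so differences smaller than that shift turn by construction: 12 guidance genes did, among them Sema4g (-0.382 points) and Unc50 (-0.206) in short and Sema4d (-0.352) and Unc5b (-0.165) in long fragments. Of these, Sema4g (adjusted p = 0.0254) and Efna4 (-0.339, adjusted p = 0.029) in short fragments passed the test as lower. Leaving out a library turned the sign for 10 guidance genes, none of them called. In short fragments these were Sema4g (-0.00167 without induced mouse 1, up to 0.0233 without induced mouse 3), Plxnb1 (-0.0133 without induced mouse 1), Plxna2 (-0.81 without induced mouse 3, and -0.455 without control mouse 2 or 3), Sema4b (-0.02 without induced mouse 3) and Epha1 (0.015 without control mouse 1). In long fragments they were Sema4d (-0.18 without induced mouse 2, up to 0.315 without induced mouse 1), Unc5b (-0.0533 without induced mouse 3, up to 0.532 without induced mouse 1), Ephb4 (-0.423 without induced mouse 1, and -0.353 without control mouse 1 or 2), Sema5a (-0.0267 without induced mouse 2) and Sema6d (0.0233 without control mouse 3). Over the genes named by rule, 639 repeats kept direction and side of the threshold, 67 lost the call and 19 gained it. The deposited tables give no counts, so a coverage minimum could not be tried and the depth behind a level limits its precision by an unknown amount.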
